A study of Mus musculus with 6 samples.

Results

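The genes described here make, move, degrade and sense prostaglandins in the aorta of mice under AngII/BAPN, that is, angiotensin II together with beta-aminopropionitrile, a lysyl oxidase inhibitor. They are 10 genes chosen by symbol (Ptgs1, Ptgs2, Ptgis, Ptges, Ptgds, Tbxas1, Hpgd, Slco2a1, Ptger3 and Ptgir) among 32771 in the deposited table, and all 10 were found and passed the filter on low counts. The list was drawn up with results of the antibody comparison in view, so the values below are only a description of these members. Calls on them in the fits across all genes are printed but not taken as support. The 6 RNA-seq libraries are of whole aorta from wild-type mice. The mice of 3 libraries (replicates 5, 7 and 39) also received anti-CTHRC1, directed against a protein that activated fibroblasts secrete, and those of the other 3 (replicates 14, 18 and 20) received isotype IgG in its place. All groups thus received AngII/BAPN, and mice without it are not analysed here. The labels give no age or sex, and do not say that each library came from a separate animal, so the spread between libraries may be partly technical.

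Prostaglandins are lipid mediators made from arachidonic acid that act near the cell that made them. The cyclooxygenases Ptgs1 and Ptgs2 convert arachidonic acid to the common precursor prostaglandin H2, which terminal synthases turn into prostacyclin, prostaglandin E2, prostaglandin D2 or thromboxane. Slco2a1 carries prostaglandins into cells, where Hpgd inactivates them, and G protein-coupled receptors such as Ptger3 and Ptgir sense them at the cell surface. In the vessel wall, prostacyclin is known for relaxing smooth muscle and restraining platelets, and thromboxane for the opposite actions.

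Deposited counts summed to between 64556253 and 67859566 per library, and levels are given as CPM, which is relative to library size scaled by the trimmed mean of M-values (TMM), or as the deposited FPKM, which is relative to library size and gene length. Among counts of 1 to 59, 56.3% to 57.4% were even; the cause was not tested. In the 3496 genes of at least 1 CPM on average in which antibody replicates 5 and 7 lay over 0.5 apart in log2, replicate 39 lay between them in 85.1%. Choosing genes in which replicates 5 and 7 lie apart favours this by itself, and no other libraries were compared. The share thus cannot decide whether replicates 5, 7 and 39 are independent, and the labels do not say. Among the 10 members, taken without that cut, replicate 39 lay between replicates 5 and 7 in 7. With 1 CPM added, 319 genes in IgG replicate 14 exceeded each other library at least 4-fold, against 1 to 3 such genes in any other library. Values of the members without these libraries are given below. The mice were given an antibody to the protein, so the level of Cthrc1 RNA does not check the labels.

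Ptges and Ptger3 were higher, and Slco2a1, Tbxas1 and Ptgs1 lower, in every antibody library than in any IgG library, and Ptgir was higher by a smaller margin. Ptges, the inducible microsomal prostaglandin E synthase, averaged 2.30 times its IgG level and Ptger3, a prostaglandin E2 receptor, 3.63 times, while the transporter Slco2a1 averaged 0.422 times. The groups overlapped in Ptgs2, Ptgis, Ptgds and Hpgd. Groups without overlap were thus found in 6 of the 10 members, 3 higher and 3 lower, beside 22% of the 19241 genes tested (11% higher and 11% lower). In the fit across all genes (edgeR quasi-likelihood test, adjusted p under 0.05) the threshold was passed by Ptges, higher, and by Slco2a1, lower, beside 0.317% of all genes. DESeq2 called these and, in addition, Ptger3 as higher and Tbxas1 and Ptgs1 as lower, so 5 of the 10 beside 7.48% of 21182 genes. The members' median log2 fold change was -0.50, beside -0.02 over all genes tested, and 7 of the 10 values were negative. Nothing is read from these counts, since the members were chosen with this comparison in view.

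**Figure D1:**
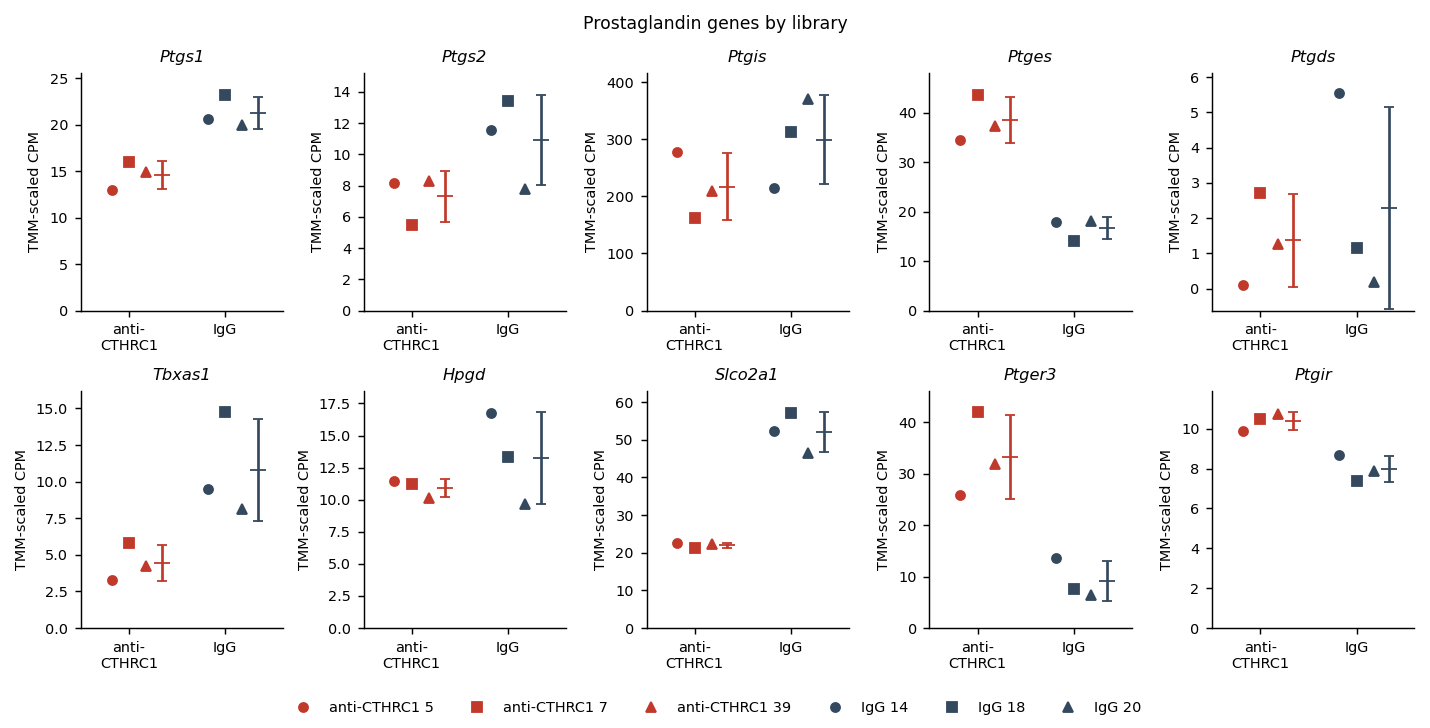
TMM-scaled CPM of the 10 prostaglandin genes in the 3 anti-CTHRC1 libraries (red) and the 3 IgG libraries (blue), each point 1 library, with the mean and SD of the group at its right. Ptges, Ptger3 and Ptgir sit higher in all antibody libraries, and Slco2a1, Ptgs1 and Tbxas1 sit lower, while the groups overlap in the other 4 panels.

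The calls on Ptges and Slco2a1, which are no support since the members were chosen with this comparison in view, rested on most of the libraries. Both were kept when IgG replicate 14 or 20 was left out, and both were lost when antibody replicate 5, 7 or 39 or IgG replicate 18 was left out, where edgeR called 0 to 2 genes in the whole table. The fold changes moved little in these fits, between 1.1 and 1.31 for Ptges and between -1.28 and -1.17 for Slco2a1 on the log2 scale. Without antibody replicate 39 and IgG replicate 14 together, the members that did not overlap were 3 higher (Ptges, Ptger3 and Ptgir) and 4 lower (Ptgs1, Ptgis, Tbxas1 and Slco2a1), beside 44.5% of all genes tested.

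The sequence just before the transcription start is shown for the 4 members with the largest absolute log2 fold changes, 2 of them higher and 2 lower. They were chosen by these fold changes, so no contrast between the 2 pairs is drawn. Each is the 250 bases before the start that RefSeq gives on GRCm38.p6, 5′ to 3′ on the strand of the gene. The windows are chr3:157566626-157566875 on the plus strand, chr2:30903298-30903547 on the minus strand, chr9:103008237-103008486 on the plus strand and chr6:38918736-38918985 on the plus strand. Capitals mark the motif matches found.
Ptger3: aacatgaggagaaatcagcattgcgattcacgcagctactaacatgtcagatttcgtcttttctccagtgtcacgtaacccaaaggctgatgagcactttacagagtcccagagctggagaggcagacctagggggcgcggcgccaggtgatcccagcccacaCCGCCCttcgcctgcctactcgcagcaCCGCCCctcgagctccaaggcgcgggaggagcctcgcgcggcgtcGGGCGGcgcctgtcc
Ptges: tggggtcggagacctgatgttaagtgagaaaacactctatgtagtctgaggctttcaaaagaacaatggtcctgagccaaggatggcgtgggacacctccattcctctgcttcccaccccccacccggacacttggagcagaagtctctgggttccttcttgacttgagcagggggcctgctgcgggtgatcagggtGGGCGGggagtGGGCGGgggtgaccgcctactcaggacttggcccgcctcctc
Slco2a1: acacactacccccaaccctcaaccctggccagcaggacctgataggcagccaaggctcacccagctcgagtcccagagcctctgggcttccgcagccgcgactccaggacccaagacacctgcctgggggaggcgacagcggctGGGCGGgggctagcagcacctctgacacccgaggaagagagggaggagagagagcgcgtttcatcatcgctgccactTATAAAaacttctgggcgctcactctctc
Tbxas1: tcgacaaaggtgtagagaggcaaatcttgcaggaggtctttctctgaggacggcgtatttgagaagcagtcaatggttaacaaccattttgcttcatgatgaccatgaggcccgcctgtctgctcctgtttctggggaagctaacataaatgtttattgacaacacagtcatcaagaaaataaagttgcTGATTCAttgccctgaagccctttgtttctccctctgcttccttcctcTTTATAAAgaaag

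RefSeq entries were found for 9 of the 10 members, all but Ptgis. The 7 motifs searched on both strands were the TATA box TATAAA, the E-box CACGTG, the cyclic AMP element ACGTCA, the C/EBP site TTGCGCAA, the AP-1 site TGANTCA, the GC box GGGCGG and the NF-kB site. The E-box and the cyclic AMP element can share letters, and in Tbxas1 a pair of TATA box matches on opposite strands overlap. Ptger3 had 3 GC boxes and Ptges had 2, in the capitals above, and neither window held a TATA box. Slco2a1 held 1 TATA box, 29 to 24 bases before the start, and 1 GC box, and Tbxas1 held TATA box letters 13 to 6 bases before the start and 1 AP-1 site. Among the same windows of 32851 RefSeq starts, 12.4% held the TATA box, 32.7% the GC box and 6.75% the AP-1 site. Of the other 5 members with a window, Ptgs2, Ptgir and Hpgd held the GC box and Ptgds the AP-1 site. Ptgs2 also held the C/EBP site, which 0.164% of all windows held. Ptgs1 held none of the 7 motifs, and none of these 5 windows held a TATA box. The starts of Slco2a1 and Tbxas1 lie 19775 and 43582 bases inside the gene bounds of the deposited table, and 12 and 6 bases from the nearest transcript start in GENCODE M21. These matches describe letters only.

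Of the cyclooxygenases, Ptgs1 is the constitutive enzyme and Ptgs2 the one induced by inflammatory signals. Ptgs1 (ENSMUSG00000047250, chromosome 2, 36230426 to 36252272 on GRCm38) was at 13.02, 16.0 and 14.9 CPM in antibody replicates 5, 7 and 39, against 20.7, 23.2 and 19.99 CPM in IgG replicates 14, 18 and 20. The highest antibody library lay below the lowest IgG library, and the log2 fold change was -0.54 (SE 0.13). Ptgs2 (ENSMUSG00000032487, chromosome 1, 150100031 to 150108227) was at 8.15, 5.45 and 8.31 CPM after the antibody, against 11.6, 13.4 and 7.78 CPM after IgG. IgG replicate 20 lay among the antibody libraries, so the groups overlapped, with a log2 fold change of -0.58 (SE 0.27). The fold changes of both enzymes were therefore of like size, while the spread of Ptgs2 within groups was larger. The SD of log2(CPM + 0.5) within groups was 0.355 for Ptgs2 and 0.130 for Ptgs1.

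Per length, Ptgs1 exceeded Ptgs2 in every library. The ratio of their FPKM values was 1.88, 3.46 and 2.11 in antibody replicates 5, 7 and 39, against 2.10, 2.04 and 3.03 in IgG replicates 14, 18 and 20, so the groups overlapped. Macrophage markers, of cells that express both enzymes, summed to 716 to 1052 CPM after the antibody, against 1272 to 1710 CPM after IgG, and their part in these values was not tested. Lyz2 made up the larger part of the macrophage sum in every library, and Adgre1, Fcgr1 and Mrc1 each overlapped between the groups. In libraries of whole aorta, fewer cells of a type and less RNA per cell cannot be told apart.

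Ptgis, prostacyclin synthase, was by far the most abundant member (ENSMUSG00000017969, chromosome 2, 167191805 to 167240604). Its CPM was 278, 161 and 209 in antibody replicates 5, 7 and 39, against 215, 312 and 370.3 in IgG replicates 14, 18 and 20. The groups overlapped, since antibody replicate 5 lay above IgG replicate 14. The log2 fold change was -0.47 (SE 0.26), and it was -0.25 without IgG replicate 20 and -0.69 without antibody replicate 5. The smooth muscle markers, which also overlapped between the groups, were lowest in antibody replicate 7 too, at 2386 CPM in sum. Their sums were 5522 and 3587 CPM in antibody replicates 5 and 39, against 3365, 7907 and 6312 CPM in IgG replicates 14, 18 and 20, and their part in the Ptgis values was not tested.

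Ptges (ENSMUSG00000050737, chromosome 2, 30889471 to 30903297) was at 34.5, 43.6 and 37.2 CPM in antibody replicates 5, 7 and 39, against 17.9, 14.1 and 18.1 CPM in IgG replicates 14, 18 and 20. The lowest antibody library was at 1.91 times the highest IgG library. The means were 38.4 ± 4.66 CPM after the antibody, against 16.7 ± 2.26 CPM after IgG (SD, n = 3 each), with a log2 fold change of 1.20 (SE 0.15). It was 1.23 without antibody replicate 39, 1.25 without IgG replicate 14 and 1.28 without both. It was thus the 1 synthase of the 6 synthesis genes whose antibody libraries all lay above the IgG libraries. Adipocyte marker sums were higher in every antibody library too. They were 4714, 8317 and 6658 CPM in antibody replicates 5, 7 and 39, against 2165, 2185 and 4585 CPM in IgG replicates 14, 18 and 20. The antibody libraries were in the same order as for Ptges. IgG replicate 20 was the highest of its group in both, but the lowest was replicate 14 for the sum and replicate 18 for Ptges. The sum in IgG replicate 20 lay near that in antibody replicate 5, while Ptges was at 18.1 against 34.5 CPM. In IgG replicates 14 and 20 Ptges was nearly equal, while the sums lay far apart. Fibroblast marker sums, of which Col1a1 was the larger part in every library, overlapped between the groups. Of the 8 fibroblast genes, 5 were higher after the antibody without overlap, beside 11% of all genes tested, and 0 passed the threshold in edgeR. Pdgfra went the other way, with a log2 fold change of -0.17 (SE 0.16), and overlapped. The part of fat or fibroblasts in the Ptges values was not tested.

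The other E synthases, taken from a list of pathway genes that holds none of the members, had smaller fold changes. Per length, Ptges3 lay above Ptges in every library and Ptges2 lay below it in every library. The margin for Ptges2 was narrow in IgG replicate 20, at 4.08 against 4.09 FPKM. In CPM, which takes no account of length, Ptges2 lay above Ptges in antibody replicate 7 and in all 3 IgG libraries. Ptges2, a membrane-associated form, was at 20.8, 44.6 and 33.2 CPM after the antibody, against 22.3, 16.2 and 23.2 CPM after IgG, and missed the threshold (edgeR adjusted p = 0.295, log2 fold change 0.68, SE 0.29). Ptges3, the cytosolic form that also serves as the HSP90 co-chaperone p23, gave 0.04 on the same scale (edgeR adjusted p = 0.864, SE 0.10). Neither passed the threshold, and the differences between Ptges and these genes were not tested.

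Tbxas1, thromboxane synthase (ENSMUSG00000029925, chromosome 6, 38875404 to 39084585), is an enzyme of platelets and macrophages. It was at 3.30, 5.78 and 4.27 CPM in antibody replicates 5, 7 and 39, against 9.49, 14.7 and 8.13 CPM in IgG replicates 14, 18 and 20. Every antibody library lay below every IgG library, with a log2 fold change of -1.28 (SE 0.31), and the value was -0.99 without IgG replicate 18. On the log2(FPKM + 1) scale it was -0.56, since this scale shrinks the change of a gene near 1 FPKM. Macrophage markers were lower in 5 of 8 genes without overlap, beside 11% of all genes tested, and in their sum, as above. Platelet markers summed to 18.9 to 20.9 CPM after the antibody, against 21.9 to 28.6 CPM after IgG. Of their 8 genes only Pf4 was lower without overlap, and it made up the larger part of the sum in every library. The other 7 each overlapped, so the lower platelet sum rests on Pf4. Their part in the Tbxas1 values was not tested. Tbxas1 shares 762 bases with Hipk2 on the opposite strand, and the strand setting of the counting is not given in the sources used here, so the value of Tbxas1 is uncertain. Hipk2 was at 11.8, 18.1 and 12.99 CPM after the antibody, against 8.72, 12.3 and 12.8 CPM after IgG.

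Ptgds, the lipocalin-type prostaglandin D synthase (ENSMUSG00000015090, chromosome 2, 25466709 to 25470046), varied most among the members. Its deposited counts were 7, 173 and 85 in antibody replicates 5, 7 and 39, against 421, 78 and 11 in IgG replicates 14, 18 and 20. Libraries of both groups were spread over the whole range, and the log2 fold change of -0.75 (SE 1.33) turned to 1.02 without IgG replicate 14. Hpgds, the haematopoietic D synthase of mast cells and macrophages, was at 4.08, 4.42 and 5.33 CPM after the antibody, against 6.62, 7.11 and 5.06 CPM after IgG, and overlapped too (log2 fold change -0.44, SE 0.22, adjusted p = 0.367, edgeR).

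Slco2a1, the prostaglandin transporter (ENSMUSG00000032548, chromosome 9, 102988712 to 103096002), showed a spread within groups of 0.108 (SD of log2(CPM + 0.5)), the lowest among the members after Ptgir at 0.0895. It was at 22.5, 21.2 and 22.2 CPM in antibody replicates 5, 7 and 39, against 52.4, 57.1 and 46.6 CPM in IgG replicates 14, 18 and 20. All antibody libraries lay within 1.34 CPM of each other, and the highest of them was at 0.482 times the lowest IgG library. The means were 22.0 ± 0.704 CPM after the antibody, against 52.1 ± 5.26 CPM after IgG (SD, n = 3 each), with a log2 fold change of -1.25 (SE 0.11). It stayed at -1.25 without antibody replicate 39, and was -1.24 without IgG replicate 14.

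Vascular endothelium is a known site of Slco2a1, and the endothelial markers overlapped between the groups. They summed to 1205, 1446 and 1333 CPM in antibody replicates 5, 7 and 39, against 908, 1478 and 1282 CPM in IgG replicates 14, 18 and 20, and 1 of 8 (Eng) did not overlap, being higher after the antibody. Macrophage markers did move in the same direction, with sums given above, and their part in the Slco2a1 values was not tested.

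Hpgd, 15-hydroxyprostaglandin dehydrogenase, which starts the breakdown of prostaglandins (ENSMUSG00000031613, chromosome 8, 56294585 to 56321043), was at 11.4, 11.3 and 10.1 CPM after the antibody, against 16.8, 13.3 and 9.66 CPM after IgG. The antibody libraries lay within the IgG range, and the log2 fold change was -0.28 (SE 0.21) and -0.07 without IgG replicate 14. Between the transporter and the enzyme, the FPKM ratio of Slco2a1 over Hpgd was 0.245, 0.233 and 0.273 in antibody replicates 5, 7 and 39, against 0.388, 0.532 and 0.600 in IgG replicates 14, 18 and 20. This ratio did not overlap between the groups. Abcc4, an efflux pump that exports prostaglandins, was at 21.8, 24.0 and 26.8 CPM after the antibody, against 18.2, 22.1 and 23.9 CPM after IgG, and did not pass the threshold (log2 fold change 0.18, SE 0.15, adjusted p = 0.584, edgeR).

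Ptger3 encodes EP3, a receptor for prostaglandin E2 that lowers cyclic AMP and restrains lipolysis in adipocytes. Ptger3 (ENSMUSG00000040016, chromosome 3, 157566892 to 157645888) was at 25.9, 41.9 and 31.8 CPM in antibody replicates 5, 7 and 39, against 13.5, 7.58 and 6.37 CPM in IgG replicates 14, 18 and 20. The means were 33.2 ± 8.11 CPM after the antibody, against 9.16 ± 3.83 CPM after IgG (SD, n = 3 each). The log2 fold change of 1.86 (SE 0.32) was the largest among the members, and it ran from 1.66 without antibody replicate 7 to 2.25 without IgG replicate 14. Ptger3 did not pass the threshold in edgeR on all 6 libraries, nor in limma on voom or FPKM values. It passed in DESeq2, and among the edgeR alternatives only when IgG replicate 14 was left out.

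The adipocyte marker sums, given beside Ptges, were higher in every antibody library, as Ptger3 was. Of these markers, 5 of 8 were higher without overlap (Adipoq, Cfd, Lep, Plin1 and Retn), beside 11% of all genes tested. In the antibody group the order of libraries was that of Ptger3, with replicate 7 highest and replicate 5 lowest. In the IgG group it was not, since replicate 20 had the highest adipocyte sum and the lowest Ptger3. Lep differed from the sum there, at 8.28, 5.49 and 4.24 CPM in IgG replicates 14, 18 and 20, the order of Ptger3. Every other listed adipocyte gene was highest in IgG replicate 20. Lep was the 1 adipocyte marker past the threshold (log2 fold change 2.48, adjusted p = 0.0412, edgeR), and in the antibody group it was lowest in replicate 39. The part of fat in the Ptger3 values was not tested.

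Ptgir, the prostacyclin receptor (ENSMUSG00000043017, chromosome 7, 16906490 to 16910905), was at 9.86, 10.5 and 10.7 CPM in antibody replicates 5, 7 and 39, against 8.69, 7.39 and 7.88 CPM in IgG replicates 14, 18 and 20. The groups did not overlap, though the log2 fold change was only 0.38 (SE 0.14). On the FPKM scale the lowest antibody library, at 2.81 FPKM, lay next to IgG replicate 14 at 2.79 FPKM. The FPKM ratio of Ptger3 over Ptgir was 1.54, 2.34 and 1.74 in antibody replicates 5, 7 and 39, against 0.913, 0.600 and 0.473 in IgG replicates 14, 18 and 20, so Ptger3 exceeded Ptgir in every antibody library and in no IgG library.

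The other prostanoid receptors gave no call in edgeR. The list outside the members held 8 genes, the receptors and Ptgfrn, which is not a receptor itself. Of these, 6 were tested, and 0 were past the threshold in either direction in edgeR. The 2 at an unadjusted edgeR p under 0.05 (beside 3292 of all 19241 genes tested) were Ptgfr and Ptgfrn, and the 1 that DESeq2 called was Ptgfrn. Ptger1, which couples to calcium, gave -0.04 as its log2 fold change (edgeR adjusted p = 0.946, SE 0.22). The cyclic AMP-raising E receptors Ptger2 and Ptger4 had -0.18 (SE 0.29, adjusted p = 0.801, edgeR) and -0.56 (SE 0.36, adjusted p = 0.475, edgeR). The thromboxane receptor Tbxa2r had 0.03 (SE 0.21, adjusted p = 0.957, edgeR), and per length it was at 5.73 to 8.64 FPKM after the antibody and 5.55 to 7.77 FPKM after IgG, above Ptgir in every library. Ptgfr, the receptor of prostaglandin F2 alpha, was at 6.76, 5.21 and 7.89 CPM after the antibody, against 4.19, 4.17 and 4.11 CPM after IgG, and did not overlap, but missed the threshold (log2 fold change 0.67, SE 0.22, adjusted p = 0.212, edgeR). Ptgfrn, which is named for inhibiting that receptor, averaged 308 ± 68.5 CPM after the antibody, against 198 ± 11.8 CPM after IgG (SD, n = 3 each), and was called by DESeq2 only (log2 fold change 0.64, SE 0.18, adjusted p = 0.175, edgeR). The D receptors Ptgdr and Ptgdr2 had at most 16 and 11 counts in any library and were not tested. Whether Ptger3 differed from these receptors in its change was not tested.

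**Figure D2:**
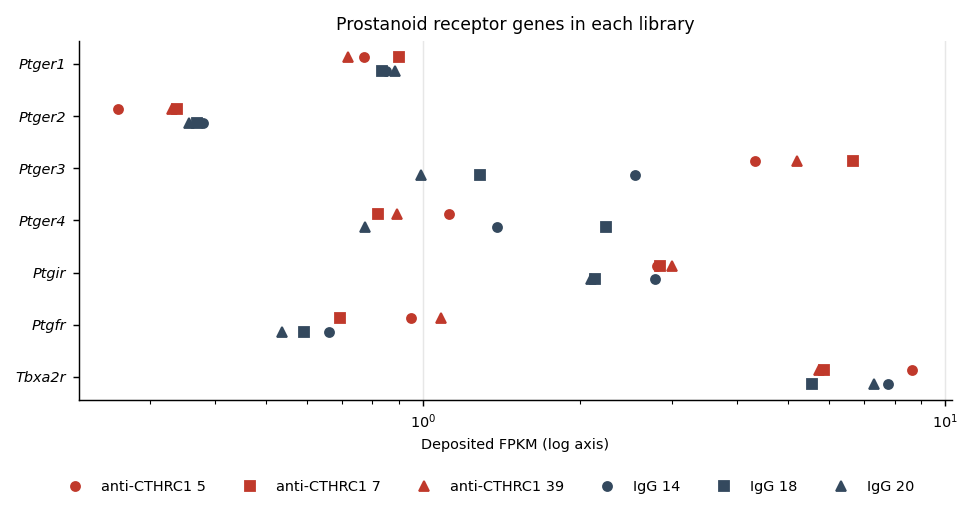
Deposited FPKM, on a log axis, of 7 prostanoid receptor genes in the 3 anti-CTHRC1 libraries (red, upper row of each gene) and the 3 IgG libraries (blue, lower row). Ptger3 lies between 4.33 and 6.67 FPKM after the antibody and between 0.994 and 2.54 FPKM after IgG. By narrower margins, Ptgir and Ptgfr also lie higher after the antibody without overlap, and Ptger2 lower, though Ptger2 overlapped in CPM. The rows of Ptger1, Ptger4 and Tbxa2r overlap.

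Across the wider pathway, a list of 67 symbols that holds phospholipases, other synthases, receptors, transporters, regulators and the leukotriene branch matched 66 genes, of which 59 were tested. Of the 59, 14 had an unadjusted edgeR p under 0.05, beside 3292 of all 19241 genes tested. Past the edgeR threshold 0 of the 59 were higher and 1 was lower, beside 0.104% and 0.213% of all genes. That 1 gene was Tsc22d3, which encodes GILZ, a glucocorticoid-induced protein that represses inflammatory signalling. It was at 38.1, 41.8 and 38.9 CPM in antibody replicates 5, 7 and 39, against 89.4, 148 and 124 CPM in IgG replicates 14, 18 and 20, a fall of the mean to 39.6 ± 1.90 CPM after the antibody, against 120.4 ± 29.6 CPM after IgG (SD, n = 3 each). On the log2 scale the fold change was -1.60 (edgeR adjusted p = 0.0344, SE 0.19). The call held without IgG replicate 14 and was lost without any other single library, where adjusted p ran from 0.0506 to 0.343.

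In DESeq2, 3 of the 59 were higher (Ptgfrn, Ltc4s and Nr3c1) and 4 lower (Tsc22d3, Alox5ap, Cyp4f18 and Dpep2), beside 2.78% and 4.7% of all genes, and Ltc4s, Nr3c1 and Dpep2 are named here after their values were seen. The median log2 fold change of the 59 was -0.04, with 30 negative values. Groups did not overlap in 10 higher and 6 lower of the 59, beside 11% higher and 11% lower of all genes tested, so these counts are near the background.

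Genes that release arachidonic acid gave 0 calls among the 12 tested in edgeR (1 at an unadjusted p under 0.05) and 0 in DESeq2. Pla2g4a, the cytosolic phospholipase A2 that feeds the cyclooxygenases, was at 33.9, 18.1 and 24.7 CPM after the antibody, against 29.9, 27.8 and 23.3 CPM after IgG (log2 fold change -0.08, SE 0.23, adjusted p = 0.898, edgeR). Mgll, the monoacylglycerol lipase, which is abundant in fat, was at 262, 347 and 303 CPM after the antibody, against 171, 238 and 247 CPM after IgG (log2 fold change 0.48, SE 0.18, adjusted p = 0.259, edgeR), and did not overlap. Among the 9 other terminal synthases and reductases, 0 passed in edgeR (0 at an unadjusted p under 0.05) or in DESeq2, and the smallest p belonged to Prxl2b, a prostaglandin F synthase (log2 fold change 0.56, SE 0.24, adjusted p = 0.292, edgeR).

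The order of the members by FPKM, a scale per length on which genes can be compared, was led by Ptgis at 95.3 ± 26.6 FPKM (SD over 6 libraries). Hpgd followed at 6.92 ± 2.03 and Ptges at 6.60 ± 2.79, then Ptgs1 at 4.41 ± 1.11, Ptger3 at 3.51 ± 2.27, Slco2a1 at 2.63 ± 1.29, Ptgir at 2.61 ± 0.39, Ptgs2 at 1.92 ± 0.696, Ptgds at 1.09 ± 1.33 and Tbxas1 at 0.803 ± 0.462 FPKM. Ptgis stood above Hpgd in all 6 libraries by 3.33 of its own SD. Each of the neighbouring pairs from Hpgd against Ptges to Slco2a1 against Ptgir was in that order in 3 of 6 libraries. In each of these pairs, those 3 libraries were all of 1 group, and the order was reversed in every library of the other group. Their order therefore depended on the group, and the SD over 6 libraries holds that difference. Ptgds against Tbxas1 was in that order in 3 of 6 libraries, drawn from both groups, and did not differ beyond the spread.

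The order differed between the groups in the middle ranks. Ptges held rank 2 after the antibody and rank 4 after IgG, and Ptger3 held rank 4 after the antibody and rank 8 after IgG. Ptgs1 held rank 5 after the antibody and rank 3 after IgG, and Slco2a1 held rank 7 after the antibody and rank 5 after IgG. The FPKM ratio of Ptges over Ptgis was 0.0809, 0.176 and 0.116 in antibody replicates 5, 7 and 39, against 0.0543, 0.0294 and 0.0319 in IgG replicates 14, 18 and 20, without overlap. The ratio of Ptgis over Tbxas1 was 301, 99.4 and 174 in antibody replicates 5, 7 and 39, against 80.4, 75.4 and 162 in IgG replicates 14, 18 and 20, and the groups overlapped. FPKM depends on the length taken for a gene, and the exons of Slco2a1 and Tbxas1 cover 13545 and 9094 bases in GENCODE M21, the longest among the members, so a shorter main transcript would have a higher level than stated.

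**Figure D3:**
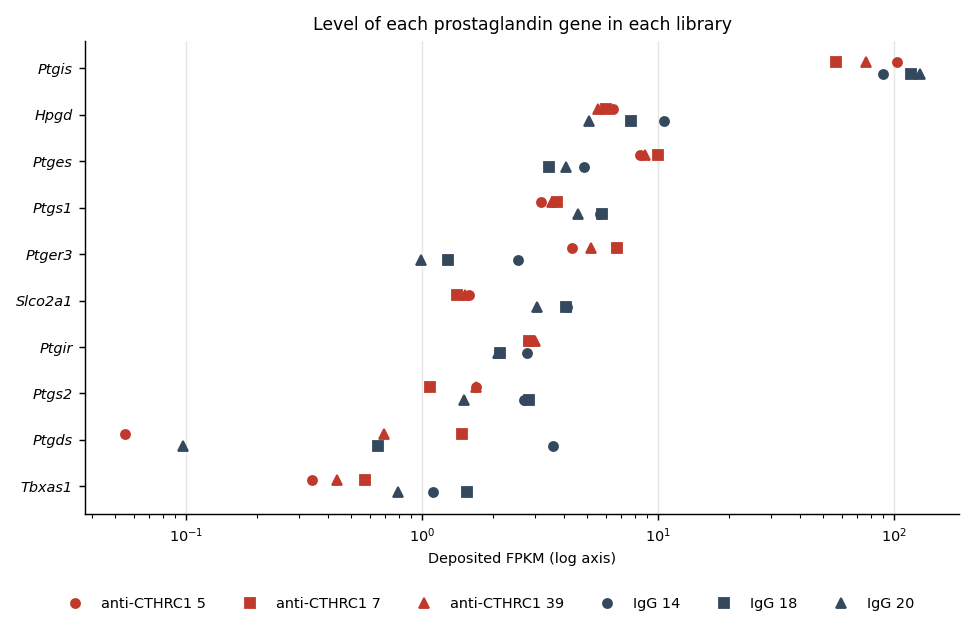
Deposited FPKM, on a log axis, of the 10 members ordered by their mean, with the 3 anti-CTHRC1 libraries in red (upper row of each gene) and the 3 IgG libraries in blue (lower row). Ptgis lies apart from the rest at 56.9 to 128 FPKM, and Ptgds spreads widest. Slco2a1, Ptges, Ptger3, Ptgs1 and Tbxas1 show separate groups, as does Ptgir by a narrow margin.

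**Figure D4:**
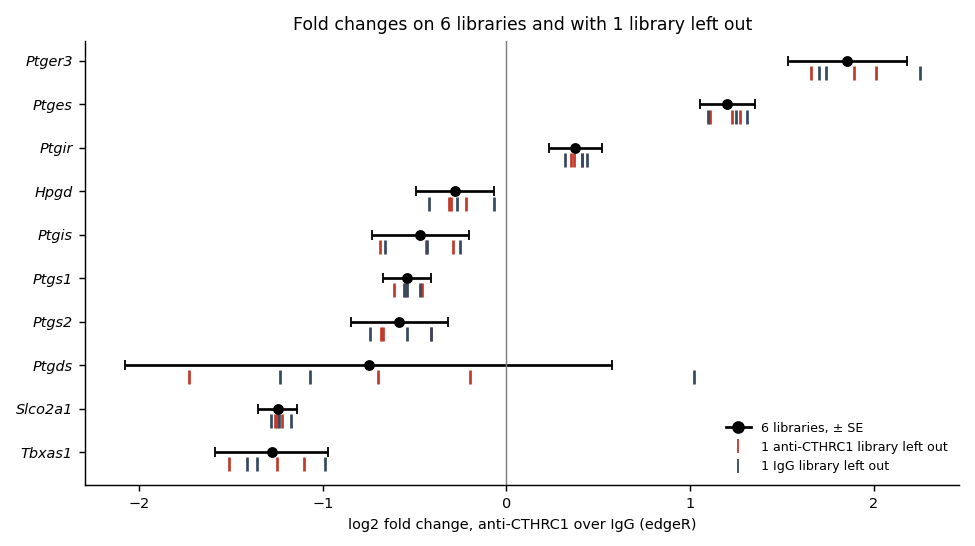
Log2 fold changes of the 10 members, anti-CTHRC1 over IgG, from edgeR on 6 libraries (black points with SE) and with 1 antibody library (red ticks) or 1 IgG library (blue ticks) left out. All ticks of Ptger3, Ptges, Ptgir, Ptgs1, Slco2a1 and Tbxas1 keep the sign of the point, and Ptgds turns from -0.75 to 1.02 without IgG replicate 14.

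The cell type markers set beside these genes are shown together in the plot of summed marker levels. The listed smooth muscle, fibroblast and endothelial genes were all detected in all 6 libraries. So were the listed adipocyte, macrophage and T cell genes, so detection does not check the aortic label. Fibroblast markers, of cells known to express Ptges and Ptgis, summed to 20457 to 29206 CPM after the antibody, against 11787 to 20873 CPM after IgG, which overlapped. Of their 8 genes, 5 were higher without overlap, beside 11% of all genes tested. Mast cell markers, of cells known to make prostaglandin D2, summed to 21.8 to 32.7 CPM after the antibody, against 24.3 to 30.6 CPM after IgG, with Ms4a2 at 0 in 4 of 6 libraries. Mesothelial markers summed to 5.56 to 9.30 CPM after the antibody, against 3.28 to 115 CPM after IgG, neutrophil markers to 17.4 to 31.4 and 20.1 to 27.1 CPM, and T cell markers to 7.73 to 10.1 and 8.02 to 64.3 CPM.

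**Figure D5:**
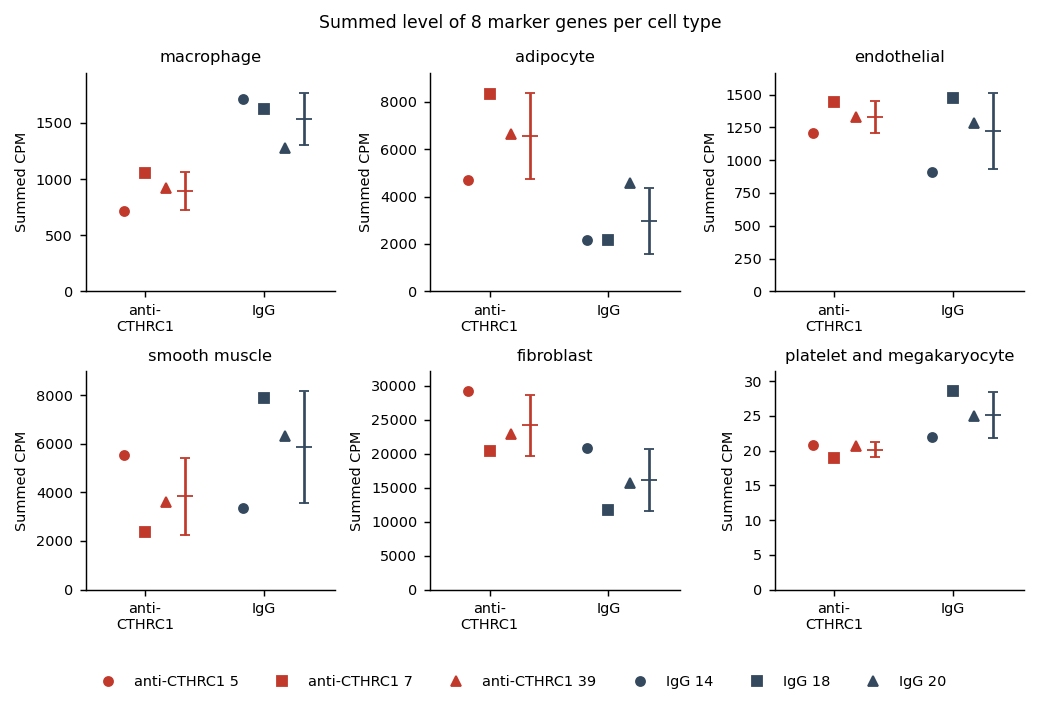
Summed TMM-scaled CPM of 8 marker genes for each of 6 cell types in the 3 anti-CTHRC1 libraries (red) and the 3 IgG libraries (blue), each point 1 library, with the mean and SD of the group at its right. Macrophage and platelet sums are lower and adipocyte sums higher in all antibody libraries, while endothelial, smooth muscle and fibroblast sums overlap. The larger part of the platelet sum is Pf4, the 1 gene of its 8 that did not overlap. The larger part of the macrophage sum is Lyz2.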

How the data were processed

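The labels' protocols give TruSeq Stranded Total RNA libraries of mouse aorta (6 here), read from both ends. Per the file headers, the deposited table holds raw counts of genes and, beside them, FPKM values scaled by the authors for length and library size. HISAT2, StringTie, DESeq2 and GRCm38 appear, without roles, among the submitters' processing notes; the counting mode and its use of strand are not given in the sources used here. Counts were fitted in R 4.3.3 with edgeR 4.0.16 (filterByExpr, TMM, robust quasi-likelihood F-test, two-sided, Benjamini-Hochberg over 19241 genes, threshold 0.05), all 6 libraries and no covariates; the biological coefficient of variation was 0.397. DESeq2 1.42.0, limma 3.58.1 (voom, and log2(FPKM + 1) or log2(FPKM + 0.1), where a group mean reached 1 FPKM), DESeq2 size factors, no filter, library sizes without mitochondrial and haemoglobin genes, and leaving out libraries were alternatives. The edgeR step was tested on simulated data. The smallest chi-square per degree of freedom between libraries was 39.6 (antibody replicates 7 and 39), so none were merged. The members and lists were chosen with earlier results of these data known. Named genes are the members, the prostanoid receptors, 5 fixed genes, those past the threshold and the smallest p in each sub-list. Sequences are from RefSeq (GRCm38.p6), coordinates from the deposited table.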

Additional observations from a re-analysis of the deposited data

How the results depend on the processing

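No paired analysis was possible because the groups share no replicate numbers. On all 6 libraries edgeR called 20 genes higher and 41 lower. DESeq2 called 588 higher and 996 lower, and edgeR with no filter called 32 and 63. Leaving out 1 library gave 0 to 71 higher and 0 to 156 lower, with 62 and 128 without IgG replicate 14, 71 and 156 without IgG replicate 20, 1 and 1 without antibody replicate 5 and 0 in both directions without antibody replicate 7 (2054 genes at an unadjusted p under 0.05), without antibody replicate 39 (1802) and without IgG replicate 18 (2468), where DESeq2 called 930, 732 and 1012. Without antibody replicate 39 and IgG replicate 14 together edgeR called 0 and 0 (2056 unadjusted). In the wider list, DESeq2 gave 3 higher and 4 lower against 0 and 1, and leaving out 1 library gave 0 to 0 higher and 0 to 1 lower, with 0 lower when both libraries were left out. The cause of these changes was not tested. Among members, 9 kept the sign of their fold change in every alternative run. Ptgds turned to 1.02 without IgG replicate 14 and 1.07 without both. On the log2(FPKM + 1) scale, which shrinks low genes by construction, the log2 fold changes were 0.98 for Ptges, -0.56 for Tbxas1, -0.92 for Slco2a1, 1.33 for Ptger3 and 0.22 for Ptgir. Ranking members by TMM-scaled counts per kilobase of GENCODE exons, an alternative added after the data were seen, as were the DESeq2 fits with 1 library left out, kept 8 of 10 ranks and exchanged Slco2a1 and Ptgir. Levels by a length from the deposited table were not run, since none is listed there. Tbxas1 and Ptgds rest on few counts, down to 7 for Ptgds, and with 3 libraries a group smaller differences would not be called.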

Other observations

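The leukotriene branch, which uses arachidonic acid as the cyclooxygenases do, was measured in the same libraries. Of 13 genes tested, 0 passed in edgeR, where 6 had an unadjusted p under 0.05, beside 3292 of all 19241 genes tested. By DESeq2, 1 was higher (Ltc4s) and 2 were lower (Alox5ap and Dpep2), beside 2.78% higher and 4.7% lower of all genes. Alox5ap, the protein that presents arachidonic acid to 5-lipoxygenase, was at 17.5, 25.6 and 24.4 CPM in antibody replicates 5, 7 and 39, against 50.0, 44.2 and 40.6 CPM in IgG replicates 14, 18 and 20 (log2 fold change -0.998, SE 0.17, adjusted p = 0.0864, edgeR). All antibody libraries lay below all IgG libraries. Ltc4s, leukotriene C4 synthase, was at 11.8, 22.8 and 14.9 CPM after the antibody, against 9.43, 5.95 and 8.32 CPM after IgG (log2 fold change 1.06, SE 0.29, adjusted p = 0.175, edgeR), and was named after its values were seen. Dpep2 (ENSMUSG00000053687), a dipeptidase that converts leukotriene D4, overlaps another entry of the same symbol, which had at most 11 counts in any library and was not tested. The tested entry was at 5.90, 7.53 and 6.78 CPM after the antibody, against 12.8, 9.76 and 14.97 CPM after IgG (log2 fold change -0.89, SE 0.20, adjusted p = 0.135, edgeR), and was likewise named after its values were seen. Outside these 13, among the listed genes of transport and breakdown, Cyp4f18, a hydroxylase of leukotriene B4 in mouse, was at 1.54, 2.30 and 2.76 CPM after the antibody, against 13.5, 5.12 and 5.35 CPM after IgG (log2 fold change -1.86, SE 0.46, adjusted p = 0.154, edgeR). Macrophage markers were lower in the antibody libraries, with sums of 716 to 1052 CPM against 1272 to 1710 CPM after IgG, and their part in these values was not tested.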
